A study of Rattus norvegicus with 10 samples.

Results

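Actb, Map2 and Odf2l are the 3 genes of the actin cytoskeleton, the microtubules and the centrosome that had a named linear-transcript probe on these arrays. They were taken by name, with 1 probe each (CUST_4_PI421900130 for Actb, A_44_P111897 for Map2 and A_44_P288463 for Odf2l), out of 62 linear-transcript probes, of which 39 had a gene symbol, beside 14145 probes for circular RNAs (circRNAs). Each of the 3 probes had 10 spots per array. The tissue was synovium, the lining of the joint, from male rats aged 7 to 8 weeks and labelled day 21. One group was normal and the other had CIA (collagen-induced arthritis, joint inflammation that follows immunisation of the animal with collagen), with 5 samples in each. Total RNA of both groups was digested with RNase R, which digests RNA from a free end and so leaves closed circles, and was then labelled and read on 1 single-colour array per sample. The 3 probes therefore read what linear RNA was left, or circles that contain the probed exon, and the files do not tell these apart. The labels do not say that the samples of a group came from separate animals, so the p-values speak only of the spread among the samples given, and this spread may be technical. In bulk tissue, fewer cells of a type and less RNA per cell cannot be told apart.

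Actb encodes beta-actin, which polymerises into the filaments that give cells their shape, carry contraction and drive migration; its messenger RNA is abundant in most cells and is often used as a reference in expression assays. Map2 encodes microtubule-associated protein 2, which binds and stabilises microtubules and is best known from the dendrites of neurons. Odf2l encodes outer dense fibre protein 2 like, a relative of the centriolar appendage protein Odf2, and has been placed at the centrosome. Synovial fibroblasts and infiltrating leukocytes depend on the actin and microtubule systems for movement, and in most cells a primary cilium grows from the older centriole.

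Signal strength differed between the arrays, which bears on every value given here. Normal arrays had a 75th percentile of processed circRNA signal of 199 ± 69.7 scanner units, and CIA arrays had 341 ± 47.7 units (SD, n = 5 each). This difference had a p of 0.016 in an exact permutation test, two-sided, or 0.032 adjusted over 2 array measures, and the adjusted p was 0.063 in 8 of the 10 repeats with 1 array omitted. In scan run 1 alone, described next, the difference was 25.7 units. Local background had a median of 12.9 ± 0.224 units for normal and 12.7 ± 0.447 units for CIA (SD, n = 5 each), with an adjusted p of 0.72 in the same exact test. Normal replicate 1 and the 5 CIA arrays were scanned in 1 run and normal replicates 2 to 5 in another, so group and scan run were largely confounded. Normal replicate 1 had a 75th percentile of 315 units, within the CIA range of 263 to 381, and normal replicates 2 to 5 had 133 to 198 units. The median of the 77 negative control spots was 20 to 21 units on normal replicates 2, 3 and 4 and 17 to 18 units on the other 7 arrays. None of the 10 cell type lists used to check the tissue had a named probe apart from the nerve and Schwann cell list, where Map2 itself was the 1 gene measured. The level of a gene is given as its log2 processed signal, averaged over the spots, minus the log2 of the array's 75th percentile.

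Actb was the brightest of the 3 probes against background on every array and read lower on the CIA arrays. Its log2 level was 0.21, 1.75, 1.52, 2.95 and 1.80 on normal replicates 1 to 5. On CIA replicates 1 to 5 the log2 level of Actb was -0.31, 0.32, -0.38, -0.41 and -0.28. The 4 normal arrays of scan run 2 lay above all other arrays, normal replicate 1 stood beside the CIA arrays, and the groups overlapped because CIA replicate 2 lay above normal replicate 1. The group means of the log2 level were 1.65 ± 0.97 for normal and -0.21 ± 0.30 for CIA (SD, n = 5 each). The log2 difference, CIA minus normal, was -1.86 (SE 0.42, 95% confidence interval -2.77 to -0.95), which is a 3.63-fold lower signal in CIA. In limma the unadjusted p was 0.00079 and the adjusted p was 0.096 over the 13951 probes tested, so Actb did not pass the threshold of 0.05. No probe passed in that fit (0%), while 4521 probes (32.4%) had an unadjusted p under 0.05, 12.3% of all probes being lower and 20.1% higher in CIA.

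With the 60 linear-transcript probes fitted and adjusted alone, Actb passed in limma (log2 difference -1.86, SE 0.44, adjusted p = 0.035), 1 of 2 probes that did (3.33% of the 60). Within scan run the Actb difference was smaller. With scan run as a block, its log2 difference was -0.43 (SE 0.52, 95% confidence interval -1.57 to 0.72, limma adjusted p = 1.0). Scan run 1 alone gives the same -0.43 by construction (SE 0.40), since scan run 2 holds no CIA array. It is a comparison of 5 CIA arrays with 1 normal array that is assumed to vary like the others. In those 2 fits 0 probes passed in limma (0%), and 335 (2.4%) and 292 (2.09%) had an unadjusted p under 0.05. Within the normal group, the log2 level of Actb on normal replicate 1 was 1.79 lower than the mean of the 4 normal arrays of scan run 2 (level 2.00 ± 0.64, SD, n = 4). Without normal replicate 1 the Actb difference was -2.22 (SE 0.32, limma adjusted p = 0.0031), but then 5006 probes (35.9%) passed, and in those 9 arrays the groups and the scan runs cannot be told apart. With arrays weighted by how well they followed the fit, which gave normal replicate 1 the lowest weight (0.17), Actb also passed (-2.35, SE 0.34, limma adjusted p = 0.00024), as did 56.2% of all probes.

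The unscaled signal of Actb did separate the groups. Its mean over the spots was 365, 628, 382, 1240 and 691 units on normal replicates 1 to 5. On CIA replicates 1 to 5 the unscaled Actb signal was 265, 329, 292, 270 and 306 units. Every CIA array thus lay below every normal array, although the array's 75th percentile was higher in CIA. Without scaling between arrays the groups did not overlap, with CIA lower, for 8 of the 13951 probes (0.0573%). Among the 60 linear-transcript probes this held for 1 (1.67%), which was Actb. With CIA higher, the groups did not overlap for 1140 of the 13951 probes (8.17%). The log2 difference of Actb without scaling was -1.03 (SE 0.37, limma adjusted p = 0.036), against a median of 1.02 over all probes, and 48.6% of all probes passed in that fit. Among the normal arrays of scan run 2 the highest Actb signal was 3.25 times the lowest, and among the CIA arrays it was 1.24 times the lowest. The spots of Actb on 1 array agreed far better than the arrays did. The SD over its spots was 0.026 to 0.091 on the log2 scale, and the standard error of an array's mean was at most 0.030, against an SD of 0.97 between normal arrays.

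**Figure D1:**
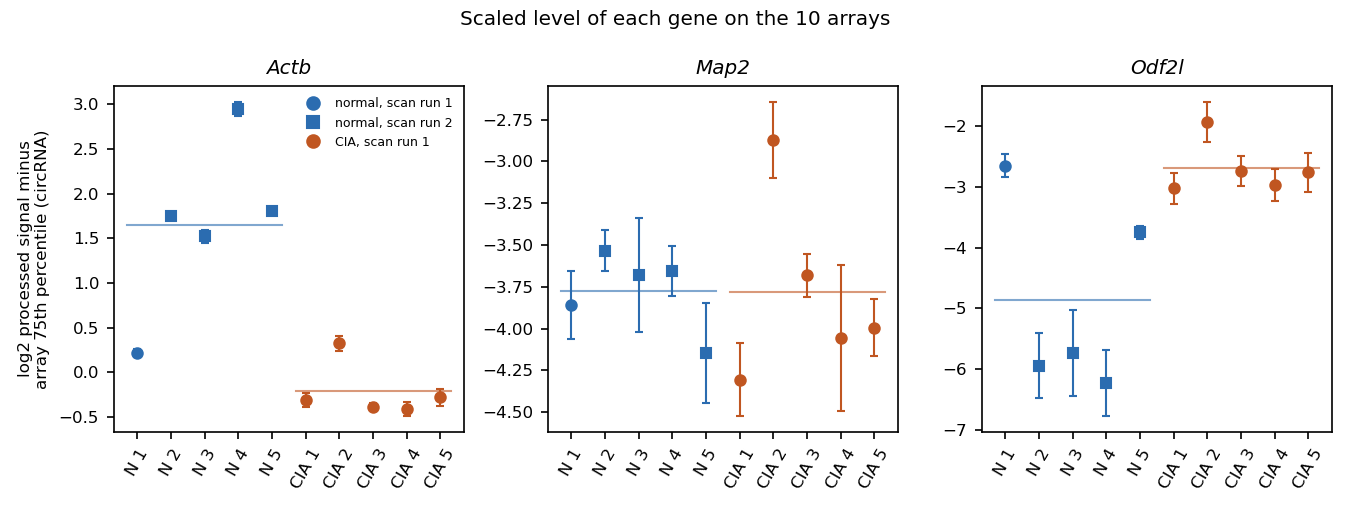
Log2 level of Actb, Map2 and Odf2l (processed signal minus the 75th percentile of circRNA probes on that array) on each of the 10 arrays, with blue for normal (N), orange for CIA, circles for scan run 1 and squares for scan run 2. Bars give the SD over the spots of the probe and horizontal lines the group means; for Actb and Odf2l normal replicate 1 lies beside the CIA arrays, at 0.21 and -2.66, and apart from the normal arrays of scan run 2.

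Map2 gave a weak signal, with almost equal group means in the reported fit. Its log2 level was -3.86, -3.53, -3.68, -3.66 and -4.15 on normal replicates 1 to 5. The CIA arrays gave Map2 log2 levels of -4.30, -2.87, -3.68, -4.06 and -3.99 for replicates 1 to 5. The groups overlapped over most of their range, and CIA replicates 1 and 2 were the lowest and the highest of all 10 arrays. The mean log2 level of Map2 was -3.77 ± 0.24 in normal and -3.78 ± 0.55 in CIA (SD, n = 5 each). The log2 difference was -0.0074 (SE 0.29, 95% confidence interval -0.65 to 0.63, limma adjusted p = 0.99). The interval leaves room for a difference of 0.63 in either direction. With scan run as a block the difference was 0.08 (SE 0.50, limma adjusted p = 1.0).

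The Map2 probe read close to background throughout. Its unscaled processed signal was 10.4 to 21.7 units on the normal arrays and 16.6 to 35.9 units on the CIA arrays. The median spot signal of Map2 before background subtraction was 1.5 to 3.12 times that of the array's negative control spots. Of its spots, 48 of 50 on normal arrays and 50 of 50 on CIA arrays were well above background, a flag that the scanner software sets from the spot and its background. The SD over the Map2 spots of 1 array was 0.12 to 0.44 and the standard error of an array's mean at most 0.15, against SDs of 0.24 between normal and 0.55 between CIA arrays. The Map2 difference lay near 0 in the reported fit, but its sign and size changed with the scaling and the background correction. Without scaling it was 0.82 (SE 0.35, limma adjusted p = 0.062) against a median of 1.02 over all probes, and relative to the median of the linear-transcript probes it was 0.29 (SE 0.29, limma adjusted p = 0.46) against a median of 0.49. Both settings move all probes alike, and Map2 lay below the median of all probes in each, as it did in the reported fit (-0.0074 against 0.19). After normexp background correction it was -0.47 (SE 0.19, limma adjusted p = 0.098).

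**Figure D2:**
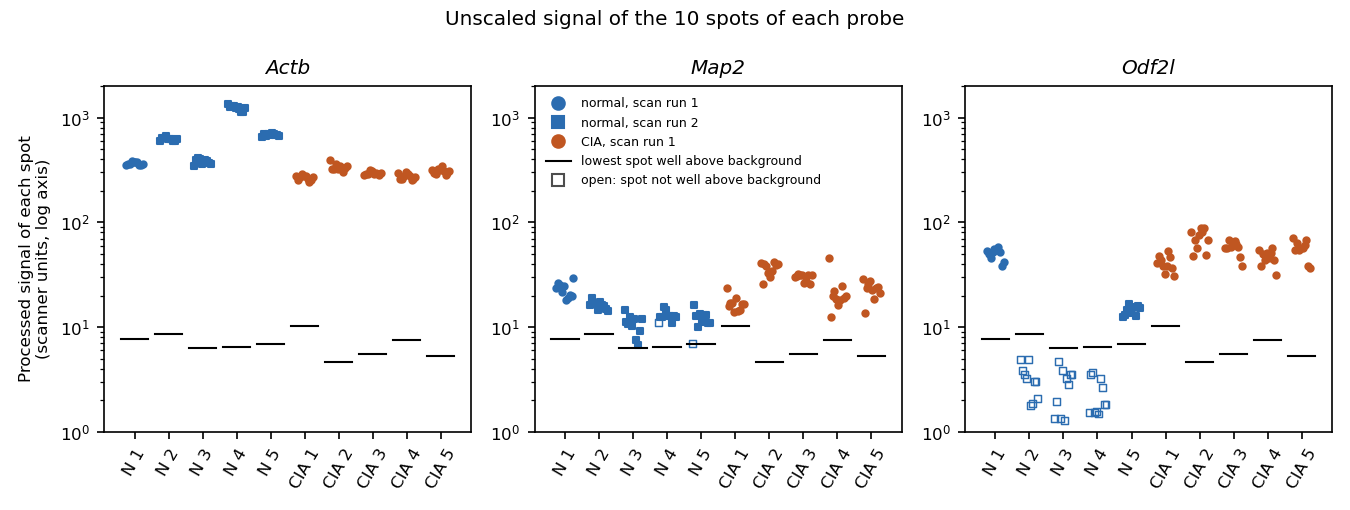
Unscaled processed signal of the 10 spots of each probe on each array, on a log axis in scanner units, with filled symbols for spots well above background, open symbols for spots that are not, and a black line at the array's lowest signal of a spot well above background. Actb lies between 242 and 1358 units on all arrays, all but 1 of the Map2 spots lie above the line, and the 30 Odf2l spots on normal replicates 2, 3 and 4 lie below it.

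Odf2l read higher on the CIA arrays on average, but its low values came from 3 normal arrays on which the probe was not well above background. Its log2 level was -2.66, -5.94, -5.73, -6.23 and -3.75 on normal replicates 1 to 5. On CIA replicates 1 to 5 it was -3.03, -1.93, -2.75, -2.97 and -2.76. Normal replicate 1 lay above 4 of the 5 CIA arrays, normal replicate 5 lay between them and the other normal arrays, and the groups overlapped. The mean log2 level of Odf2l was -4.86 ± 1.57 in normal and -2.69 ± 0.44 in CIA (SD, n = 5 each). The log2 difference was 2.17 (SE 0.62, 95% confidence interval 0.82 to 3.53), and it did not pass in limma (unadjusted p = 0.0045, adjusted p = 0.096 over all probes, adjusted p = 0.055 over the 60 linear-transcript probes alone).

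Detection of Odf2l split the normal group. On normal replicates 2, 3 and 4, 0 of the 10 spots were well above background on each array. On normal replicates 1 and 5 and on all 5 CIA arrays, 10 of 10 were. Odf2l thus passed the filter of 5 arrays with 7 arrays, 5 of them from the CIA group. The unscaled signal was 49.9, 3.04, 2.50, 2.14 and 14.7 units on normal replicates 1 to 5 and 40.3 to 69.0 units on the CIA arrays. Before background subtraction the median Odf2l spot stood at 25, 22.5 and 22.75 units on normal replicates 2, 3 and 4, or 1.08 to 1.19 times the negative control spots of the same arrays. On the CIA arrays it stood at 3.36 to 5.35 times the negative control spots, and on normal replicate 1 at 4.06 times. The negative control spots were brightest on normal replicates 2, 3 and 4, and their part in the Odf2l values was not tested. On these 3 arrays the log2 levels are therefore bounds, and the differences and p-values of Odf2l, which passed the filter through the CIA group, carry that limit. When every signal was raised to the array's lowest signal well above background, the log2 difference of Odf2l was 1.29 (SE 0.38, limma adjusted p = 0.089), smaller by a factor of over 1.5. After normexp background correction with an offset of 50 units, which shrinks differences between dim signals, it was 0.01 (SE 0.17, limma adjusted p = 0.97). With no background correction and no offset it was 0.42 (SE 0.23, limma adjusted p = 0.22).

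Within scan run the Odf2l comparison rests on 1 normal array, since scan run 2 holds no CIA array. With scan run as a block the log2 difference was -0.03 (SE 0.77, 95% confidence interval -1.72 to 1.66, limma adjusted p = 1.0), which is by construction the value in scan run 1 alone (SE 0.48). Normal replicate 1 stood 2.76 above the mean of the 4 normal arrays of scan run 2 on the log2 scale (level -5.41 ± 1.13, SD, n = 4). Without normal replicate 1 the difference was 2.73 (SE 0.47, limma adjusted p = 0.0042), in a subset where, again, the groups and the scan runs cannot be told apart. Within scan run 2, Odf2l was well above background on all 10 spots of normal replicate 5, whose negative control spots had a median of 18 units, and on none of normal replicates 2, 3 and 4, where that median was 20 to 21 units; what set these apart was not tested.

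**Figure D3:**
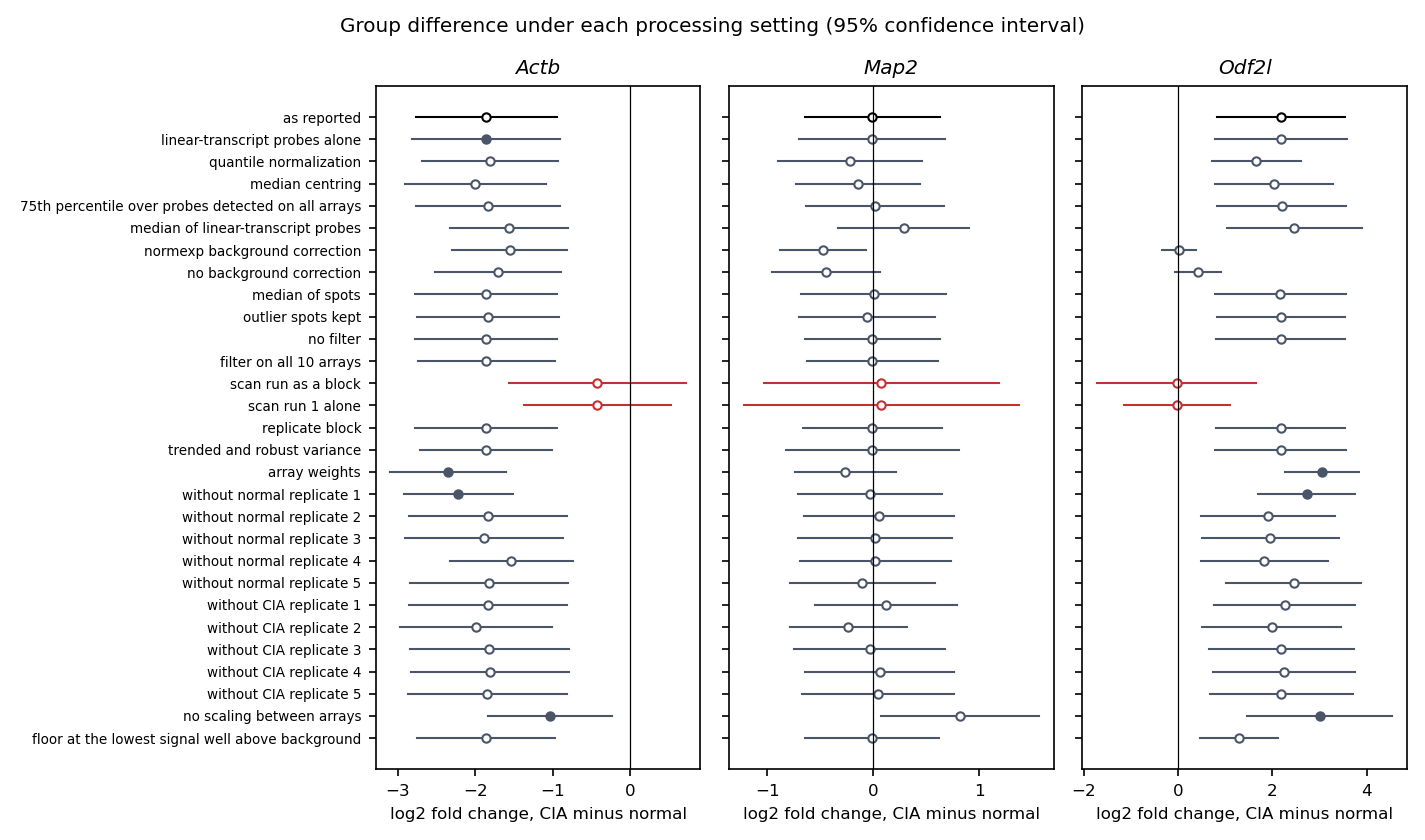
Log2 fold change, CIA minus normal, of each gene under the processing settings named on the left, with 95% confidence intervals; filled points have a limma adjusted p under 0.05 and red marks the fits that use scan run. Actb lies below 0 in all of them and nearest to it, at -0.43, within scan run; Map2 lies on both sides of 0; Odf2l lies above 0 except within scan run, where it is -0.03, and at 0.01 after normexp.

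The ratio of 2 probes on the same array does not change when all signals of that array are multiplied by 1 factor. It was therefore used to set the 3 genes against each other. Quantile normalization and background correction do change it. With normexp the log2 differences were -1.55 for Actb, -0.47 for Map2 and 0.01 for Odf2l. In the reported fit they were -1.86, -0.0074 and 2.17. Each ratio is given on the log2 scale minus its mean over the 10 arrays, because the signals of different probes are not comparable as amounts. The ratio of Actb to Map2 was -0.42, 0.79, 0.70, 2.11 and 1.45 on normal replicates 1 to 5, and -0.50, -1.30, -1.20, -0.85 and -0.78 on CIA replicates 1 to 5. All CIA arrays lay below all normal arrays, normal replicate 1 only just, and the group means differed by -1.85. How many other probes would separate the groups by their ratio to Map2 was not counted, so the separation is not shown to be particular to Actb. The difference of the CIA mean from normal replicate 1 was -0.50.

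The ratio of Actb to Odf2l was -1.62 on normal replicate 1, 1.06 to 4.68 on normal replicates 2 to 5 and -2.24 to -1.77 on the CIA arrays. The groups did not overlap here either. This ratio shares the Actb signal with the ratio to Map2, so the separations are not independent. The means of the ratio to Odf2l differed by -4.03. The difference of the CIA mean from normal replicate 1 alone was -0.40. The ratio of Odf2l to Map2 was 1.20 on normal replicate 1, 0.39 on normal replicate 5, -2.58 to -2.06 on normal replicates 2, 3 and 4, and 0.93 to 1.27 on the CIA arrays. For that ratio the groups overlapped, with normal replicate 1 inside the CIA range. The Odf2l ratios on normal replicates 2, 3 and 4 carry the same bound as the Odf2l levels there. No test was made of these ratios, which were chosen with the values of the 3 genes known. The share of all probes whose ratio to Odf2l separates the groups was not counted either.

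**Figure D4:**
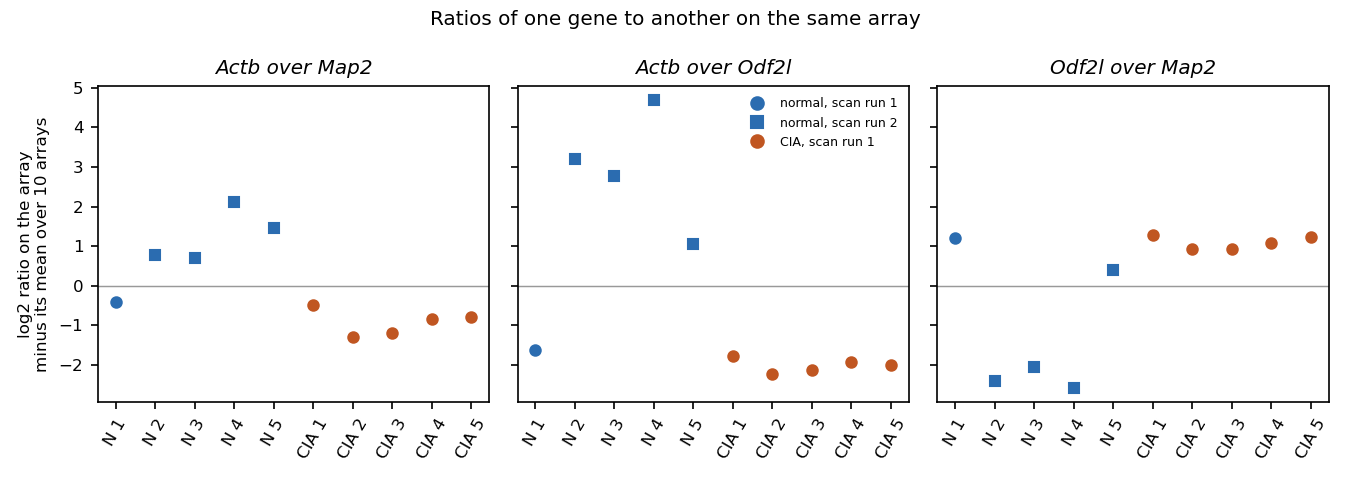
Log2 ratio of one gene's signal to another's on the same array, minus the mean of that ratio over the 10 arrays, with blue for normal (N), orange for CIA, circles for scan run 1 and squares for scan run 2. The ratios of Actb to Map2 and to Odf2l are lower on every CIA array than on every normal array, with normal replicate 1 nearest to the CIA arrays at -0.42 and -1.62. The share of other probes whose ratios separate the groups was not counted.

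The lists of actin, microtubule and centrosome genes named 118 genes, and 3 of them had a named linear-transcript probe, which were Actb, Map2 and Odf2l. No other actin, actin-binding, tubulin, microtubule-associated, centriolar or ciliary gene of the lists was measured by name, so the 3 values cannot be set beside others of the same structures. RefSeq names 10 Actb pseudogenes in the rat. Whether the Actb probe also binds their transcripts or those of other actins was not tested, since the probe sequence was not used here.

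Other named probes followed the pattern of each gene over the 10 arrays to different degrees. Likeness was measured as the root-mean-square difference between log2 levels after subtracting each probe's mean, over the 38 other probes with a symbol. For Actb, whose own levels had a root-mean-square spread of 1.13, the closest were Pld1 (0.53), Hsp90ab1 (0.53) and Pgk1 (0.59), against a median of 1.33. Pld1, a phospholipase D, was well above background on 0 of the 10 arrays, so its likeness rests on background signal. Hsp90ab1, a cytosolic chaperone, had a log2 level of 2.69 on normal replicate 1, 3.69 to 5.30 on normal replicates 2 to 5 and 2.58 to 3.01 on the CIA arrays. As for Actb, its normal arrays of scan run 2 lay above the rest and normal replicate 1 lay within the CIA range. Pgk1 departed from this pattern. Its log2 level on CIA replicate 2, -1.18, lay above those on normal replicates 3 (-1.50) and 5 (-1.64).

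For Odf2l, whose spread was 1.50, the closest was Lhcgr (0.39), the luteinising hormone receptor, followed by Pdcd10 (0.86), a gene of vascular integrity, and Mex3c (0.92), an RNA-binding ubiquitin ligase, against a median of 1.56. Lhcgr was well above background on the same 7 arrays as Odf2l, with log2 levels of -3.76 on normal replicate 1, -4.29 on normal replicate 5, -6.58 to -6.21 on normal replicates 2, 3 and 4 and -3.78 to -3.18 on the CIA arrays. Both probes are thus only bounded on normal replicates 2, 3 and 4, where both read lowest, so their likeness rests largely on background signal. Mex3c was not well above background on normal replicates 2 and 4. Unlike Odf2l, it read lower on normal replicate 1 (-3.78) than on every CIA array (-3.69 to -2.60). Pdcd10 was well above background on all 10 arrays. Its log2 level was 2.76 on normal replicate 1, 0.07 to 0.65 on normal replicates 2 to 5 and 1.57 to 3.02 on the CIA arrays. For Map2, whose spread was 0.38, the closest were a probe of Ldha (0.38), Eif4b (0.47) and Ppp2r2b (0.50), against a median of 0.78. These differences were about as large as the spread of Map2 itself or larger, so none of the 38 probes followed it closely.

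**Figure D5:**
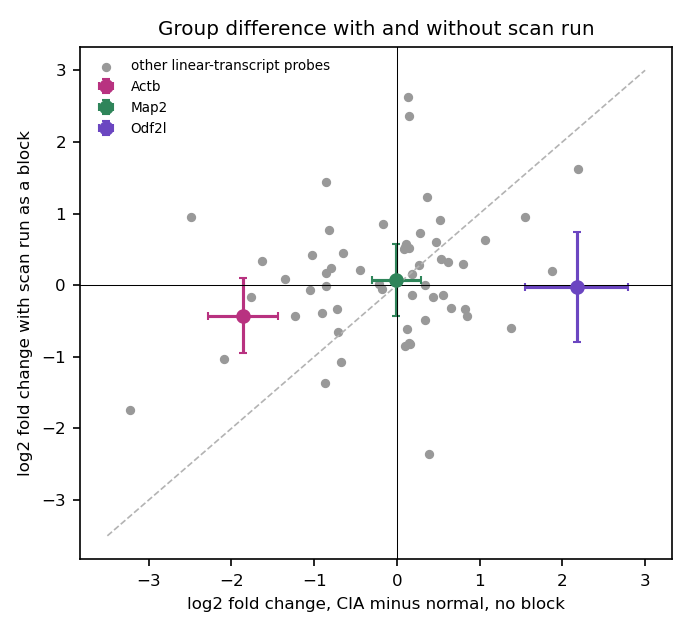
Log2 fold change, CIA minus normal, of the 60 linear-transcript probes without a batch term (horizontal axis) and with scan run as a block (vertical axis), with Actb, Map2 and Odf2l in colour with their standard errors and a dashed line of equality. Actb moves from -1.86 to -0.43 and Odf2l from 2.17 to -0.03, while Map2 stays near 0.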

How the data were processed

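Sample titles gave each array's group and number. Spot values are intensities that Agilent Feature Extraction 11.0.1.1 wrote for 1 colour, per the file headers, with background subtracted inside each array and arrays not normalized to each other. A deposited table of log2 values covers 14145 circRNA probes and 0 of the 3 genes' probes, so it could not serve as an alternative. Gene symbols came from RefSeq (assembly GRCr8), matched by accession without version.

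Spots marked as outliers were left out, the rest averaged on the log2 scale and set against the 75th percentile of that array's circRNA probes. A probe entered the fit when well above background on at least 5 of 10 arrays (a linear-transcript probe where at least 50% of its spots were), and 54 circRNA probes with an outlier spot were dropped, which left 13891 circRNA and 60 linear-transcript probes. No spot outside the controls was saturated. The test was limma 3.58.1 (lmFit, then eBayes; R 4.3.3), two-sided, with Benjamini-Hochberg adjustment over all 13951 probes and a threshold of 0.05. The fit was tested on simulated data. Arrays whose headers share a scan time form a scan run. Array measures were compared with exact permutation tests.

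The 3 genes and the gene lists were chosen with earlier results of these data known. Named genes were the 3 genes, for each the 3 named probes with the smallest root-mean-square difference, and the members of the lists. Alternatives were other scalings, background corrections, spot summaries, filters and variance models, fitting linear-transcript probes alone, array weights, blocks for scan run or replicate number, and leaving out each array. The fits without scaling, with a floor on dim signals and with linear-transcript probes alone under the scan block were added after seeing the data. Figures were drawn with matplotlib 3.10.9.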

Additional observations from a re-analysis of the deposited data

Results flagged for a closer look

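CIA replicate 2 stood apart from the other 4 CIA arrays for Actb, with a log2 level of 0.32 against -0.41 to -0.28, and for Odf2l, with -1.93 against -3.03 to -2.75. In both cases the gap to the next array was above Dixon's 95% critical value of 0.71 as a share of the group's range (0.82 and 0.74), a limit that chance passes in about 1 of 20 groups. The same array had the highest unscaled signal of all 3 genes in the CIA group and the lowest 75th percentile of that group, 263 units. Without CIA replicate 2 the log2 difference was -1.99 for Actb, 1.98 for Odf2l and -0.23 for Map2. The median local background of normal replicate 2 was 12.5 units, against 13 units on the other normal arrays.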

How the results depend on the processing

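The log2 difference of Actb was below 0 in all 19 alternatives and all 10 fits without 1 array. The 19 are not independent checks. Fitting linear-transcript probes alone, other filters, a replicate block or a trended variance returns the reported -1.86 by construction. The 3 fits that use scan run share 1 value, -0.43. Actb passed with linear-transcript probes alone (-1.86), with array weights (-2.35, limma adjusted p = 0.00024), without scaling (-1.03) and without normal replicate 1 (-2.22). The shares of tested probes passing in these fits were 3.33%, 56.2%, 48.6% and 35.9%. Over the 10 fits without 1 array the Actb difference was -2.22 to -1.53 (limma adjusted p = 0.0031 to 0.24), and 1 of the 10 passed. The adjusted p of Odf2l, whose level is only a bound on 3 normal arrays, was under 0.05 in limma with array weights (3.06), without scaling (3.002) and without normal replicate 1 (2.73), fits in which 56.2%, 48.6% and 35.9% of all probes passed. It was 1.83 to 2.73 over the 10 fits, and turned to -0.031 with scan run as a block, in scan run 1 alone and with linear-transcript probes alone under that block. Odf2l could not be fitted under the filter on all 10 arrays, and the value table was not run because it holds none of the 3 probes. Map2 never passed; it turned to 0.016 with the 75th percentile over detected probes, 0.29 with the median of linear-transcript probes, 0.0042 with the median of spots, 0.077 in each of the 3 fits that use scan run and 0.82 without scaling, and ranged from -0.23 to 0.12 without 1 array. The median over all probes was 0.19 in the reported fit, 0.49 relative to linear-transcript probes, -0.19 after normexp and 1.02 without scaling. Array weights, which were lowest for normal replicates 1 and 5 (0.17 and 0.36), gave 7835 calls (56.2%), quantile normalization gave 20 (0.143%), and the floor and the trended variance gave 1 each (0.00717%), against 0 (0%) in the reported limma fit, where 4521 had an unadjusted p under 0.05; the cause was not tested.

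With the replicate number as a block the differences were -1.86, -0.0074 and 2.17 for Actb, Map2 and Odf2l (limma adjusted p = 0.089, 0.99 and 0.089). No call changed. Each number holds 1 array of each group, so the differences equal those of the reported fit by construction. Only the standard errors and p-values could change. The labels do not say whether equal numbers mark paired samples. Of the 5 same-numbered pairs, 1 had deviations correlated above 0.1, and 2 of the 5 normal arrays correlated best with their own number. With 5 pairs these values cannot decide whether the samples were paired. The difference in the array's 75th percentile was 125 to 171 units over the 10 fits without 1 array and 25.7 units within scan run 1. The number of arrays limits the precision, and the signal over background limits what Map2 and Odf2l can show.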

Other observations

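Actb is 1 of the 11 genes measured here from a list of 26 commonly used as references. The other 10 genes had 11 probes, with a median log2 difference, CIA minus normal, of -0.71 (range -3.23 to 0.80), against 0.19 over all probes tested. At an unadjusted p under 0.05 in limma, 6 of the 11 probes read lower and 1 higher in CIA, against 12.3% and 20.1% of all probes and 20% and 11.7% of the 60 linear-transcript probes fitted alone; 0 passed the adjusted threshold. Without scaling, 1 read lower and 4 higher at that unadjusted p, against 59% of all probes in either direction. In that fit 5 of the 11 passed after adjustment, against 48.6% of all probes. With scan run as a block 0 of the 11 read lower or higher at that unadjusted p, against 2.4% of all probes. With array weights 9 of the 11 passed after adjustment, against 56.2% of all probes. The median of the list was -0.42 to -0.85 under the other scalings but 0.11 without scaling, where the median of all probes was 1.02, and it was -0.16 with scan run as a block. Against the mean of these 11 probes on the same array, Actb still differed between the group means by -1.20 on the log2 scale. The centred log2 ratio was -0.48 on normal replicate 1, 0.30 to 1.38 on normal replicates 2 to 5 and -0.94 to -0.39 on the CIA arrays. The groups overlapped, and the CIA mean lay 0.12 below normal replicate 1.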
